A study of Mus musculus with 8 samples.

Results

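The genes of DNA replication and mitosis were examined in the liver of KK-Ay mice, to ask whether a proliferation signal was present and whether it followed the diet. Members were the genes whose array symbol names a minichromosome maintenance protein (Mcm2 to Mcm7) or a cyclin of type A, B or E. The rule also took in Cdc and Cdk genes, centromere proteins (Cenp), kinesins (Kif), Aurora and Plk kinases, Bub checkpoint proteins, Top2a and Mki67. Kif22 was left out by name. Each gene was read from its probe set of highest mean. This gave 133 genes of 18193, which are covered by 315 probe sets in all. A core of 36 genes that are used mainly by dividing cells was set apart from the other 97. The reason is that the names also take in kinesins of organelle transport, CDKs of transcription and the small GTPase Cdc42. The core list had 37 genes, but Ccnb1 (cyclin B1) had no probe set with a single symbol and was not read.

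The mice were male KK-Ay/TaJcl animals, an obese and diabetic line that carries the yellow agouti allele, and every mouse in both groups had that genotype. All received the AIN-93G diet from the age of 5 weeks and, after 1 week on it, were fed for 8 weeks either that diet alone (CD) or the same diet with 1 g/kg of persimmon peel (PP) extract (PD), so that they were 14 weeks old when the liver was taken after a fast of 3 h. Arrays were made for 4 mice per diet, which the study picked from each group because their plasma ketone bodies lay near the group average, so the groups do not show the full spread of the animals. The arrays read whole liver, and in such samples fewer cells of a type and less RNA per cell cannot be told apart. Alb (albumin), a defining product of hepatocytes, read between 14.68 and 14.76 on the log2 scale in the 8 samples. It had the highest mean of all 18193 genes, and other hepatocyte genes were less even. The mean deviation of 7 hepatocyte markers, Alb and Tat among them, from their means over the 8 arrays ran from -0.02 to 0.09 in CD. In PD it ran from -0.11 to 0.03. Array medians lay between 7.09 and 7.16, and the correlation between any 2 arrays was between 0.991 and 0.996. All values below are log2 expression indices of a probe set, and they can be compared between mice but not between genes. The dim level that follows sets probe sets of different genes against each other and is therefore only a rough guide. A probe set was called dim when its mean over the 8 arrays was at or below 7.51, the 95th percentile of 44 probe sets for olfactory receptors, genes that liver is not known to use.

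A cell enters the cycle when cyclin D with Cdk4 or Cdk6 and then cyclin E with Cdk2 release the E2F factors. The Mcm2 to Mcm7 helicase is loaded on origins by Cdc6 and started by Cdc7 and Cdc45. Cyclin B with Cdk1 then drives mitosis, in which Aurora and Polo-like kinases, the Bub checkpoint proteins, the kinetochore and the mitotic kinesins move the chromosomes, until the anaphase-promoting complex (APC/C) with Cdc20 destroys cyclin B. Most hepatocytes of the adult liver rest outside the cycle and enter it after injury or loss of tissue, so that the mitotic genes are little expressed in quiescent liver.

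Many mitotic genes share short promoter elements, of which the CCAAT box is bound by NF-Y and the cell cycle homology region (CHR, TTTGAA) by the MuvB complexes that switch these genes off in resting cells. Promoter windows of 300 bases (250 before and 50 after the start of transcription, RefSeq, GRCm38.p6) were found for 30 of the 36 core genes, with 33 windows, and for 86 of the other members, with 100 windows. CCAAT on either strand was present in 28 of the 33 core windows (84.8%), against 39% of the windows of the other members and 37.4% of 32851 windows of all genes. The CHR letters were present in 20 core windows (60.6%), against 18% and 17.9%. Both occurred together in 17 core windows (51.5%), against 9% and 6.95%. An E2F site, searched on both strands as TTTCCCGC, TTTGGCGC, TTTCGCGC or TTTGCCGC and allowed to overlap the others, was present in 7 core windows (21.2%), against 8% and 2.26%. The core genes thus carried sequence letters that the choice of members had not used, and these matches describe the windows only. The windows of Ccnb2, Cdk1 and Mki67 are shown because these genes, among the core genes with a window, stood highest in the mouse that is described further on. The 250 bases before the start are printed 5′ to 3′ in the direction of the gene, with CCAAT and CHR letters of either strand in capitals.
Ccnb2 (chr9:70421555-70421804, minus strand): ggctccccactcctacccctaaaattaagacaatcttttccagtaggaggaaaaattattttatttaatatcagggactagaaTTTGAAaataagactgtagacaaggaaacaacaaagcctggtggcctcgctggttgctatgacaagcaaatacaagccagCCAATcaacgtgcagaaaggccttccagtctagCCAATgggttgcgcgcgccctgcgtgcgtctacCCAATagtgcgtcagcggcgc
Cdk1 (chr10:69352913-69353162, minus strand): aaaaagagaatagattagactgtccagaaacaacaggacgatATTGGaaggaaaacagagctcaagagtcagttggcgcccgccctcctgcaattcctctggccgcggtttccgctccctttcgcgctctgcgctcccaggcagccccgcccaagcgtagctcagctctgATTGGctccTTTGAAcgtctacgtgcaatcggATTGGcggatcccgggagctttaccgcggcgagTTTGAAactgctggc
Mki67 (chr7:135716380-135716629, minus strand): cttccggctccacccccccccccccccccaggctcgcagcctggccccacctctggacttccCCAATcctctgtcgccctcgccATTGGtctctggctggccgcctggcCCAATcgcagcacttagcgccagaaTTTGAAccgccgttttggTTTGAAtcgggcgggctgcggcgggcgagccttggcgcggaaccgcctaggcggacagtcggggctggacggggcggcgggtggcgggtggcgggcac
Each of the 3 windows held 3 CCAAT boxes and 2 CHR matches. The second CHR match of Ccnb2 lies just after the start of transcription and so after the printed stretch.

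Most core genes were read near the level of the olfactory receptor probe sets in all mice. Of the 36 core genes, 28 were dim and 8 were above the dim level, namely Ccna2, Ccne1, Cdc20, Cdc45, Kif2c, Mcm2, Mcm5 and Mcm7. The dim core genes included Mki67 (Ki-67, the standard marker of cycling cells) with a mean of 7.11, Top2a (the topoisomerase that untangles replicated DNA) with 6.67, Cdk1 with 7.34, Plk1 with 6.77 and Aurka with 6.88. Of all 133 members, 65 were above the dim level and 68 (51.1%) were dim, against 46.8% of all genes. At such levels a difference in RNA can be hidden by the background of the array, so the differences given here are those of the expression index.

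No member was called between the diets. The rank product, with a false discovery rate (FDR) under 0.1 over all 45037 probe sets, called 0 of 133 genes higher in PD and 0 lower. Over 1 probe set per gene the test called 0.286% of all genes higher and 0.357% lower, and over all probe sets 0.218% and 0.258%, so that a list of this length would hold few calls at the background rate. The lowest FDR among members was 0.430 for higher values (Kif21a) and 0.530 for lower ones (Ccnb3, a cyclin B of meiosis). limma called 0 members at an adjusted p under 0.1, where it called 0% of all genes, and its lowest adjusted p for a member was 0.998. At an unadjusted limma p under 0.05 there were 4 members, Cdc42, Cenpi, Cenpj and Kif21a, where 4.24% of all genes passed. With CD replicate 3 left out, the last count became 11 (8.27% of the members), where 6.81% of all genes passed in the same fit.

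The count of 0 does not cover Kif22, a chromosome-bound kinesin, which was left out by name with its values known. Its brightest probe set, the one that the rule of highest mean takes, differed by 0.07 ± 0.09 (SE) and was not called. A dim probe set of the gene was called lower, with 7.23, 7.60, 7.08 and 7.50 in CD and 6.94, 6.88, 6.95 and 6.98 in PD. All PD mice lay below all CD mice there, and the difference was -0.42 ± 0.10 (SE, FDR 0.0362, exact permutation p = 0.0286). This call was lost without CD replicate 1 (-0.46), 2 (-0.33) or 4 (-0.37), and the remaining probe set, also dim, gave -0.05.

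The members lay on both sides of 0. In PD, 61 genes were higher and 72 lower, with a median difference (PD minus CD, log2) of -0.011 and a range from -0.17 (Cenpv) to 0.21 (Kif21a), where the median over all genes was -0.006. The median size of the difference was 0.039 over the members and 0.043 over all genes, and 114 of the 133 members (85.7%) lay within 0.1 of 0, against 84.6% of all genes. Of the core genes, 14 were higher and 22 lower, with a median of -0.014 and a range from -0.14 (Cenpi, a kinetochore protein) to 0.09 (Kif4, a chromosome-bound kinesin). The median of the core moved to 0.002 without CD replicate 4 and to -0.04 without PD replicate 4. The 95% interval of limma lay within 0.5 of 0, a change of 1.41-fold, for all 36 core genes and for 131 of the 133 members, and the widest core intervals were those of Ccnb2 (-0.36 to 0.16) and Mcm5 (-0.34 to 0.39). Larger differences in the index of a core gene therefore lay outside its interval, each taken by itself and without adjustment for the number of genes.

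**Figure D1:**
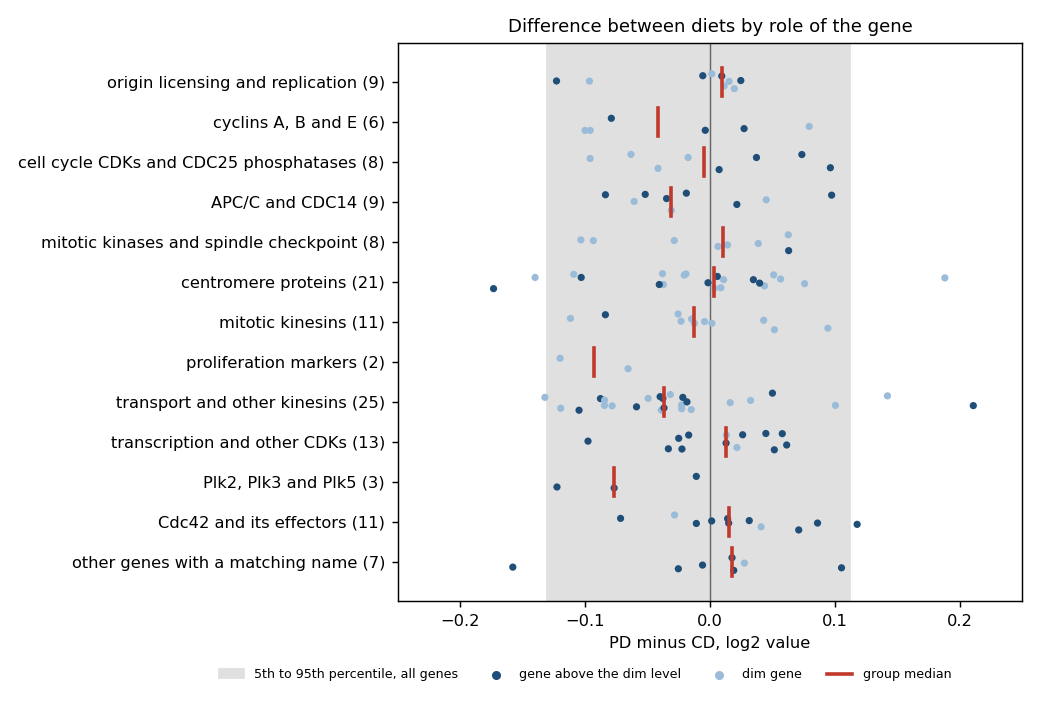
Difference between the diets (PD minus CD, log2 value, x axis) for each of the 133 genes, by role with the number of genes in brackets. Points are genes, dark where the probe set was above the dim level and pale where it was dim, red bars are group medians, and the grey band holds the 5th to the 95th percentile of all 18193 genes (-0.13 to 0.11). Of the members, 8 lay outside the band, 4 on each side.

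The genes of origin licensing and replication were measured with 9 members, of which 6 were higher and 3 lower in PD, with a median of 0.01. Mcm7, a subunit of the replicative helicase, had the most negative difference of the group, with 8.56, 8.39, 8.54 and 8.61 in CD mice 1 to 4 and 8.53, 8.26, 8.42 and 8.40 in PD mice 1 to 4. The groups overlapped, and the difference of -0.12 ± 0.07 (SE) had an exact permutation p of 0.171 (two-sided). A second probe set of Mcm7 was dim and had 4 PD values (7.32 to 7.40) that all lay below the CD values (7.41 to 7.54). Mcm5, another helicase subunit, was high in 1 mouse of each diet, with 8.18 in CD replicate 2, 8.45 in PD replicate 2 and 7.56 to 7.95 in the other 6 mice. Its difference of 0.02 ± 0.16 (SE) was small beside this spread. Mcm2, Mcm3, Mcm4 and Mcm6 had differences of 0.00 to 0.02, and Cdc45, which joins the helicase, had -0.01.

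Of the 6 cyclins of type A, B or E that were read, 2 were higher and 4 lower, with a median of -0.04. The mitotic cyclin Ccnb1 was not among them, so these values say nothing about it. Ccnb2, a B-type cyclin of mitosis, read 6.46, 6.53, 6.53 and 7.06 in CD and 6.62, 6.43, 6.61 and 6.52 in PD. Replicate 4 of CD was high and the other 7 mice lay between 6.43 and 6.62, and the difference turned from -0.10 to 0.04 without it. Ccna2, cyclin A of S phase, was 7.58 to 7.86 in CD and 7.58 to 7.92 in PD. The E cyclins of the G1 to S step differed by -0.004 (Ccne1) and 0.08 (Ccne2). Ccnb3 had a wide spread, with 6.60 to 6.94 in CD and 6.02 to 7.21 in PD, and its interval of -0.60 to 0.41 was one of the 2 that passed 0.5.

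The CDKs of the cycle and the CDC25 phosphatases that activate them were split into 4 higher and 4 lower, with a median of -0.01. Cdk1, the kinase of mitosis, read 7.39, 7.32, 7.30 and 7.56 in CD and 7.33, 7.23, 7.37 and 7.26 in PD, and its difference of -0.10 ± 0.06 (SE, exact permutation p = 0.200) lay within the overlap of the groups. The G1 kinases Cdk4 and Cdk6 differed by 0.04 and 0.07, and Cdk2 by 0.01. Among 9 genes in a group of the APC/C, CDC14 phosphatases and the ubiquitin carrier Cdc34, 3 were higher and 6 lower, with a median of -0.03. Cdc20, the activator that starts anaphase, was 7.78 to 8.03 in CD and 7.78 to 7.99 in PD.

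The 8 mitotic kinases and checkpoint genes had 5 higher and 3 lower members and a median of 0.01. Plk1, the Polo kinase of mitotic entry, had the most negative difference, -0.10 ± 0.05 (SE, exact permutation p = 0.0857), from 6.74 to 6.90 in CD and 6.65 to 6.77 in PD. Aurka, Aurkb and Bub1b, which serve the spindle, the centromere and the checkpoint, differed by -0.03, 0.04 and -0.09. The proliferation markers Mki67 and Top2a were both lower and both dim. Mki67 read 7.02, 7.30, 7.06 and 7.32 in CD and 7.09, 7.02, 7.01 and 7.09 in PD, so that 2 CD mice were above the rest and the other 2 lay among the PD mice. Its difference was -0.12 ± 0.07 (SE, exact permutation p = 0.314). Top2a read 6.82, 6.77, 6.64 and 6.59 in CD and 6.59, 6.60, 6.63 and 6.74 in PD, and the mouse with the lowest CD value of Top2a was the one with the highest value of Mki67.

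**Figure D2:**
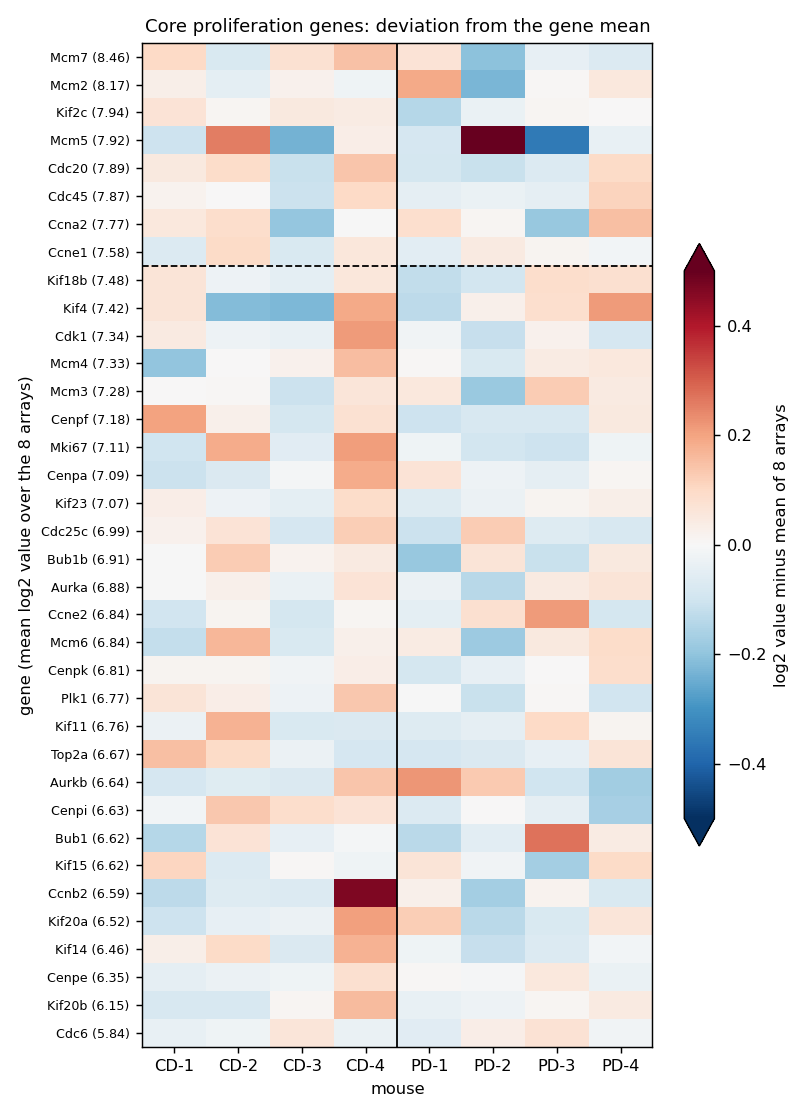
Deviation of each of the 36 core genes (rows, with the mean log2 value in brackets) from its mean over the 8 arrays in each mouse (columns, replicates 1 to 4 of CD and of PD), in log2 units from blue (lower) to red (higher). Genes above the dashed line were above the dim level. The column of CD replicate 4 is the reddest, and it holds the highest value in 14 of the 36 genes.

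The centromere proteins, which build the kinetochore, had 11 higher and 10 lower members of 21, with a median of 0.00. Cenpj, a protein of centriole growth that shares only the name with the kinetochore set, read 6.49, 6.56, 6.61 and 6.64 in CD and 6.68, 6.90, 6.81 and 6.66 in PD. All PD mice were above all CD mice, by a difference of 0.19 ± 0.06 (SE, exact permutation p = 0.0286, the smallest that 4 mice against 4 allow), on a dim probe set. Cenpi read 6.62, 6.77, 6.72 and 6.70 in CD and 6.56, 6.64, 6.59 and 6.47 in PD, a difference of -0.14 ± 0.05 (SE, exact permutation p = 0.0571) with 1 CD mouse inside the PD range. Cenpv had the most negative difference of all members, with 9.47, 9.38, 9.31 and 9.35 in CD and 8.86, 9.17, 9.31 and 9.48 in PD. The difference of -0.17 ± 0.11 (SE, exact permutation p = 0.257) came with PD values on both sides of the CD values and was -0.06 without PD replicate 1. Cenpa, the histone variant that marks the centromere, differed by 0.00.

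The mitotic kinesins had 4 higher and 7 lower members of 11, with a median of -0.01. Kif2c, which takes microtubules apart at the kinetochore, read 8.01, 7.95, 7.99 and 7.99 in CD and 7.80, 7.91, 7.95 and 7.94 in PD, and the lowest CD value stood just above the highest PD value. The difference was -0.08 ± 0.05 (SE, exact permutation p = 0.0286), but its 3 other probe sets gave 0.10, 0.04 and 0.02. Over all members the diets did not overlap for 2 genes with higher values in PD (Cenpj and Cdc42) and for 1 with lower values (Kif2c), where 1.12% and 1.03% of all genes did so. A count of 3 among 133 stood near that background.

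The 25 kinesins of transport and other work had 6 higher and 19 lower members and a median of -0.04. Kif21a, a kinesin of microtubule growth control, had the largest difference of all members, with 9.12, 9.12, 9.29 and 8.93 in CD and 9.27, 9.25, 9.37 and 9.40 in PD. One CD mouse lay inside the PD range, and the difference was 0.21 ± 0.07 (SE, exact permutation p = 0.0857). The mean of all its probe sets gave 0.08. Kif16b, an endosome motor, differed by 0.14 and Kif1a, a motor of vesicles in neurons, by -0.13, both dim and both with overlapping groups. One of the 4 probe sets of Kif1c, a motor of vesicles, was the only one of 315 called by the rank product, as lower in PD. It was chosen for mention after its values were seen, and it read 9.47, 9.35, 8.88 and 8.88 in CD and 8.26, 8.50, 8.97 and 9.22 in PD. The difference was -0.41 ± 0.20 (SE, FDR 0.0513, exact permutation p = 0.171), and 2 PD mice lay within the CD range. The other 3 probe sets of Kif1c gave -0.02, 0.10 and -0.13, and the call was lost in the fit with the replicate block and when any of CD replicates 1, 2 or 3 or PD replicates 1 or 2 was left out, with differences from -0.25 to -0.50.

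**Figure D3:**
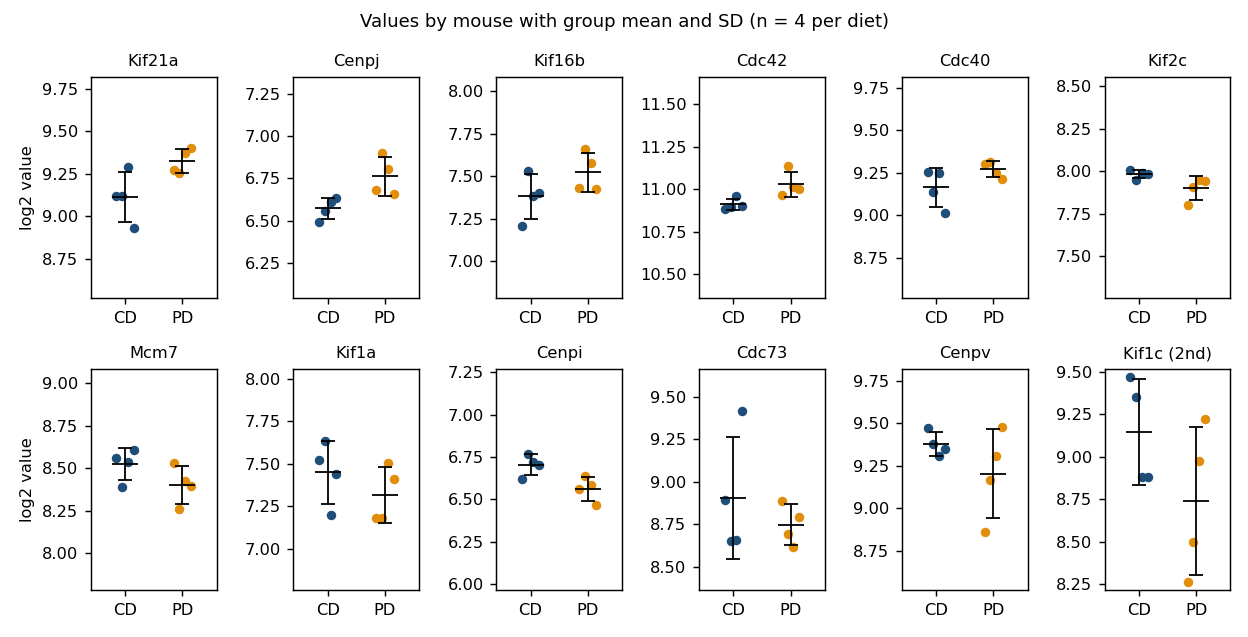
Log2 values of 12 probe sets (the 5 members with the largest difference in each direction, Kif2c and the called probe set of Kif1c) in CD and PD mice, all on axes of equal length. Points are mice, replicates 1 to 4 from left to right, and bars are the group mean and SD (n = 4). The groups are apart for Cenpj, Cdc42 and Kif2c and overlap for the other 9.

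The remaining members have work outside the cycle or only share a name. The 13 CDKs of transcription and other tasks had 8 higher and 5 lower members, between -0.10 (Cdk9, the elongation kinase) and 0.06. Cdc42, a small GTPase of cell polarity, and its effectors had 8 higher and 3 lower members of 11. Cdc42 itself read 10.88, 10.90, 10.96 and 10.90 in CD and 10.96, 11.13, 11.01 and 11.00 in PD, a difference of 0.12 ± 0.05 (SE, exact permutation p = 0.0286) with no overlap, although the highest CD mouse and the lowest PD mouse were equal to the second decimal. Its other probe sets gave 0.21 (no overlap), 0.06 and 0.04, and with probe sets that may read related transcripts removed the gene was read at 0.04. Cdc40, a splicing factor, differed by 0.11 and Cdc73, a subunit of the Paf1 complex of transcription, by -0.16. Cdc73 was 9.41 in CD replicate 4 and 8.61 to 8.90 in the other 7 mice, and its difference turned to 0.01 without that mouse. Plk3, a stress-responsive Polo-like kinase, had the widest spread of all members, from 7.40 in PD replicate 3 to 8.80 in CD replicate 4, and its difference of -0.12 had an interval of -0.68 to 0.44.

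Over the genes with more than 1 probe set, the choice of probe set mattered for signs of this size. Of the 182 other probe sets of members, 88 had the same sign as the one used. No probe set of a member was higher at FDR under 0.1 and 1 was lower, the Kif1c one already given.

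Cell cycle genes that the name rule does not reach were then read from lists of their known phase. Of 21 further S phase genes, 11 were higher and 10 lower, with a median of 0.00, none called and 0 at an unadjusted limma p under 0.05. Pcna, the sliding clamp of DNA polymerase, read 9.44, 9.32, 9.44 and 9.61 in CD and 9.55, 9.46, 9.50 and 9.41 in PD, a difference of 0.03 ± 0.06 (SE). Of 34 further G2 and M phase genes, 12 were higher and 22 lower, with a median of -0.04, none called and 0 at an unadjusted limma p under 0.05. Foxm1, the factor that drives many mitotic genes, differed by 0.00, and the lowest FDR was 0.143 for Stmn1, a microtubule-destabilizing protein, at -0.36.

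Of 22 regulators of G1, 11 were higher and 11 lower, with a median of -0.01. The rank product called 1 of them higher and 2 lower, where 0.286% and 0.357% of all genes were called, and the list was drawn up with these calls known, so the count is a description. Cdkn1a (p21), which inhibits CDKs, read 9.16, 8.33, 8.64 and 8.43 in CD and 8.72, 7.51, 7.68 and 7.60 in PD. Of the PD mice 3 lay below every CD mouse and 1 lay among them, and the gene fell by 0.77 ± 0.26 (SE, FDR 0.007, exact permutation p = 0.114), a call kept in all 16 alternatives run, from -0.59 to -1.05. Btg2, an antiproliferative gene, fell by 0.41 ± 0.20 (SE, FDR 0.053), and the call was lost without any of CD replicates 1, 3 or 4 or PD replicates 2 or 3, with -0.24 without CD replicate 4. Ccnd1, cyclin D1 of G1, read 8.04, 8.88, 8.51 and 8.52 in CD and 8.73, 8.45, 8.92 and 9.17 in PD. It rose by 0.33 ± 0.18 (SE, FDR 0.0983, exact permutation p = 0.257), a call that was lost at an FDR under 0.05, in 4 other alternatives and without CD replicate 1 (0.18) or any 1 of the PD mice (0.21 to 0.45). None of these 3 genes passed limma's adjusted threshold, and whether they differ from the members in their response was not tested.

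The spread between mice had a pattern of its own, which did not run along the diets. The mean deviation of the 36 core genes from their means was 0.09 in CD replicate 4 and between -0.05 and 0.03 in the other 7 mice. For the 28 dim core genes it was 0.10 in CD replicate 4 and between -0.05 and 0.02 in the other 7. The 8 core genes above the dim level did not set this mouse apart, with 0.06 there, 0.05 in CD replicate 2 and 0.04 in PD replicate 4. Over all 36 core genes the mean over the CD mice was 0.014 with an SD of 0.059. The mean over the PD mice was -0.014 with an SD of 0.023, and the PD values lay inside the CD range. CD replicate 4 held the highest value in 14 of the 36 core genes (38.9%), against 13.2% of all genes and 11.9% of all dim genes. This mouse and the genes named next were picked after these values were seen, so the count only describes the same values. Ccnb2 was 0.53 above the mean of the other mice there, Cdk1 0.24, Mki67 0.24, Kif20a (a kinesin of cytokinesis) 0.23, Kif4 0.22 and Cenpa 0.21, all on dim probe sets. The genes were not alike, since Top2a was 0.10 below the other mice and Kif11, the motor that separates the spindle poles, 0.08 below. Cdk1, Ccnb2 and Mki67 are the genes whose promoters are printed above. Top2a, which was low in this mouse, had more matches in its window, with 6 CCAAT boxes and 2 CHR matches. Whether the matches bear on the values in this mouse was not tested.

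The lists outside the name rule gave the same mouse as the highest. The mean deviation in CD replicate 4 was 0.12 for the 34 G2 and M phase genes, with the highest value in 15 of them (44.1%), and 0.07 for the 21 S phase genes, with 8 (38.1%). The other 7 mice lay between -0.10 and 0.04 for the first list and between -0.06 and 0.04 for the second. Stmn1 was 8.96 there and 7.72 to 8.30 elsewhere, and Birc5 (survivin, of the chromosomal passenger complex) was 6.89 against 6.31 to 6.57. Ube2c (the APC/C ubiquitin carrier) was 7.28 against 6.68 to 7.00. Other genes of these lists went the other way in this mouse. Among them, Chaf1b stood at -0.20 from the mean of the other mice, Gmnn at -0.14, Incenp at -0.10 and Tpx2 at -0.10. All these genes were named after their values were seen. All 8517 dim genes as a whole deviated by 0.00 in this mouse. The genes were read from 1 RNA sample of this mouse, and the lists share that array. Members outside the core deviated by 0.03, with the highest value in 24 of 97 (24.7%), led by Plk3, Cdc73, Cenpu and Plk2.

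**Figure D4:**
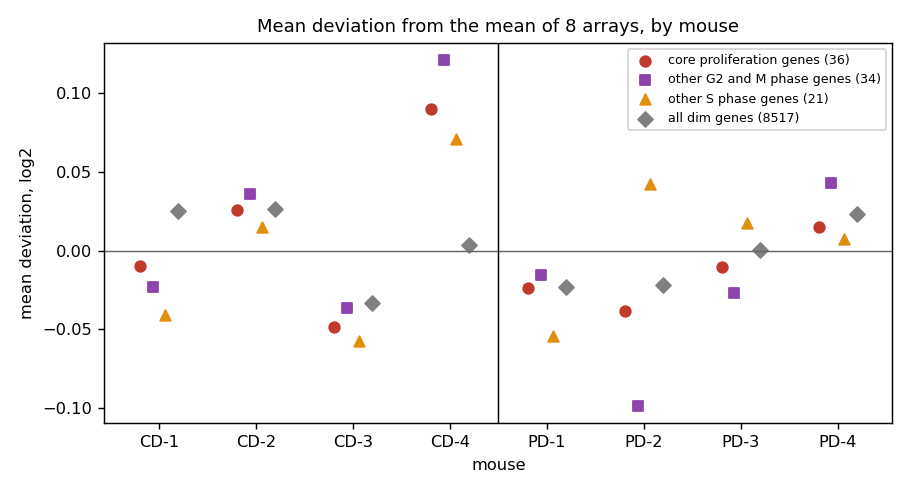
Mean deviation (log2, y axis) of 4 gene sets from their means over the 8 arrays, in each mouse (replicates 1 to 4 of CD and of PD, x axis), with the number of genes in brackets. The 3 cell cycle sets were highest in CD replicate 4 (0.07 to 0.12), where all dim genes as a whole stood at 0.00.

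Markers of other cells in the liver were read beside this. The 8 measured of 9 Kupffer cell and macrophage markers, 5 of them above the dim level, deviated by 0.21 in CD replicate 4 and by 0.20 in CD replicate 3, in which the core stood at -0.05, and their range was -0.26 to 0.21 in CD and -0.02 to 0.09 in PD. The erythroid markers, 5 measured of 8 and 3 above the dim level, deviated by 0.11 in CD replicate 4 (range -0.02 to 0.11 in CD and -0.24 to 0.03 in PD). They were not alike in that mouse. Klf1 stood 0.52 above the mean of the other mice, Hba-a1 0.16, Alas2 0.09 and Slc4a1 0.07, and Tfrc stood at -0.20. Neutrophil and granulocyte precursor markers, 8 of 8 and 4 above the dim level, deviated by 0.06 there (0.01 to 0.06 in CD and -0.08 to 0.00 in PD). The mean deviations of this list did not overlap between the diets, with 1 gene higher and 7 lower in PD. None was called, and 2 had an unadjusted limma p under 0.05, where 4.24% of all genes did. T and NK cell markers (8 of 8, 6 dim, with Cd3d, Cd3e and Cd3g among them) deviated by 0.04 there (-0.06 to 0.04 in CD and -0.05 to 0.03 in PD) and B and plasma cell markers (6 of 8, 5 dim, with Cd79a and Ms4a1 among them) by 0.03 (-0.11 to 0.04 in CD and -0.08 to 0.19 in PD). Endothelial markers (7 of 7) deviated by 0.02 in CD replicate 4 (-0.09 to 0.15 in CD and -0.08 to 0.08 in PD). Stellate cell and fibroblast markers (8 of 8) deviated by -0.12 there (-0.22 to 0.14 in CD and 0.03 to 0.11 in PD). Cholangiocyte markers, all 6 dim, deviated by -0.01 (-0.03 to 0.05 in CD and -0.02 to 0.01 in PD). Between the diets the rank product called 3 genes of these lists and 7 hepatocyte markers, against 0.286% of all genes higher and 0.357% lower. The marker lists were drawn up with earlier results known, so this count is a description. Col3a1, a collagen of stellate cells and fibroblasts, rose by 0.37 ± 0.18 (SE, FDR 0.0217), a call lost without CD replicate 2 (0.25) or without PD replicate 2, 3 or 4. Tat, a tyrosine-degrading enzyme of hepatocytes, fell by 0.44 ± 0.12 (SE, FDR 0.0294), which was no longer called when PD replicate 4 (-0.30) or one of CD replicates 1, 2 and 3 was removed. Tfrc, the transferrin receptor, fell by 0.38 ± 0.19 (SE, FDR 0.0675), a call lost with dim probe sets removed and without CD replicate 1 (-0.25) or 3 (-0.26) or PD replicate 2 (-0.28). The part of these cells in the values of the members was not tested.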

How the data were processed

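One Affymetrix mouse array was run for each of 4 CD and 4 PD livers. The deposited values are log2 numbers, which the authors obtained with a model-based expression index in R 2.7.2 (submitters' processing notes) and which were taken without change. How arrays were normalized against each other is not given in the sources. Tests ran on 45037 probe sets after removal of 64 controls. A single gene symbol belonged to 34945 of them, more than 1 to 932 and no symbol to 9160. A gene was read from its probe set of highest mean. The rank product (16 pairs of arrays, 1000 permutations, FDR under 0.1) was the main test, as in the study, and limma 3.58.1 (R 4.3.3, Benjamini-Hochberg over all probe sets) gave standard errors, intervals and a second test. Single genes had an exact permutation test over 70 regroupings. Both fits were tested on simulated data. The number of arrays limits the precision.

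The members, the core list, the role groups and the marker lists were chosen with earlier results of these data known. Genes were named where they were called, where the diets did not overlap, among the 5 largest differences in each direction, or in the core list, with Pcna, Ccnd1, Cdkn1a, Foxm1 and called genes from the outside lists. Alternatives were the normalization, a pseudocount of 16, the filter on dim probe sets, the choice of probe sets, the replicate block, the variance model and leaving out each mouse.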

Additional observations from a re-analysis of the deposited data

Results flagged for a closer look

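In 5 of the 104 groups of 4 mice examined (4.81%), 1 mouse stood far from the other 3 by Dixon's criterion, which chance meets in about 1 of 20 groups. Aurkb was 6.78 in CD replicate 4 and 6.56 to 6.58 in the other CD mice. Ccnb2 was 7.06 in CD replicate 4 and 6.46 to 6.53 in the others. Cdc45 was 7.98 in PD replicate 4 and 7.82 to 7.83 in the other PD mice. Cenpf, a large kinetochore protein, was 7.23 in PD replicate 4 and 7.08 to 7.10 in the others. Cdkn1a was 8.72 in PD replicate 1 and 7.51 to 7.68 in the others, and its difference between the diets was -1.05 without that mouse.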

How the results depend on the processing

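The rank product called 0 of the members in every alternative that read 1 value per gene, and limma called 0 throughout, with a lowest adjusted p of 0.839 (without CD replicate 3). With every probe set counted the rank product called 1, on Kif1c, and the members at an unadjusted limma p under 0.05 numbered 8 of 315 (2.54%), where 3.65% of all probe sets passed. That count was 2 of 65 (3.08%) with dim probe sets removed, where 4.09% of all genes passed, and ranged from 4 to 11 when 1 mouse was left out, where 3.20% to 6.81% passed. With the replicate block the rank product and limma each called 0 and 5 members (3.76%) had an unadjusted p under 0.05, where 4.52% of all genes did. Deviations of same-numbered mice correlated between -0.060 and -0.0003 over all probe sets, so no pairing by number was visible at that level. This cannot exclude a pairing that touches only some genes, and the labels name only biological replicates. The median difference of the members lay between -0.02 and 0.001 and that of the core between -0.04 and 0.002, and both were above 0 without CD replicate 4 only. Of 761 single values for 50 genes, 735 kept their call or stayed within the spread, 4 moved (Cdc42 to 0.04 and Kif2c to 0.10 without x_at, s_at and a_at probe sets, Kif21a to 0.08 and Kif2c to 0.02 with the mean of probe sets) and 22 lost a call (Ccnd1, Btg2 and the second Kif1c probe set). Most of these genes had no call to lose, and the 735 include sign turns such as those of Ccnb2 and Cdc73 without CD replicate 4. The cause of the moves and lost calls was not tested. The mean deviation of the core in CD replicate 4 was 0.06 to 0.09 under 6 alternatives chosen after seeing the data. Signal over background limits the 28 dim core genes.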
